A study of Mus musculus with 4 samples.

Results

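The acyl-CoA thioesterases of the Acot family that are followed here are Acot1, Acot2, Acot3, Acot4, Acot5, Acot7, Acot8, Acot12 and Acot13, 9 genes read by 10 probes among 25094 genes tested and 41174 probes. They were picked by gene name, with their ratios in these same arrays already known, so the treated over control ratios of these genes are given as a description without a test. Liver RNA came from 8-week-old female CD-1 mice and was read on 4 Agilent 2-colour arrays on 1 slide. The treated mice received Cux2 siRNA, aimed at a female-enriched liver repressor, and their livers were taken 5 days later (2 arrays, pools of 3 and 2 mice) or 8 days later (2 arrays, pools of 2 mice each). Each treated pool was hybridised against a pool from mice given non-specific siRNA, 6 mice per pool in the array labels and 6 or 7 in the series description. Only 2 such control pools served the 4 arrays, and the labels do not say which pool went on which array. The day 5 and day 8 values may therefore share control RNA, or each day may have its own control pool. If each day had its own, a difference between days cannot be told apart from one between control pools. The treated pool was in Alexa 647 and the control pool in Alexa 555 on the replicate 1 arrays, and the dyes were exchanged on the replicate 2 arrays. With pools in place of single animals, errors and p-values cover the spread between pools and dyes only.

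Acyl-CoA thioesterases split a fatty acyl-CoA into the free fatty acid and coenzyme A, and so work against the acyl-CoA synthetases. The type I enzymes (Acot1 to Acot6) lie side by side in 1 cluster on mouse chromosome 12 and are near copies that differ in where they act: Acot1 in the cytosol, Acot2 in mitochondria, and Acot3, Acot4 and Acot5 in peroxisomes. The type II enzymes (Acot7, Acot8, Acot12 and Acot13) are unrelated in sequence to type I and share the hotdog fold. In liver, several Acot genes are induced by fasting and by agonists of PPAR alpha, the fatty acid receptor that binds DNA with RXR. Acot7 maps to chromosome 4, Acot8 to chromosome 2, and Acot12 and Acot13 to chromosome 13.

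The cluster neighbours Acot2, Acot1, Acot4 and Acot3 include the members with the highest and the lowest ratio, so the sequence around their starts is shown, from 250 bases before to 50 bases after each start (RefSeq, GRCm38.p6, plus strand). The windows are chr12:83987611-83987910 for Acot2, chr12:84009252-84009551 for Acot1, chr12:84038129-84038428 for Acot4 and chr12:84051894-84052193 for Acot3, each holding the start of exon 1. Capitals mark matches, on either strand, to AGGTCA, the hexamer bound by many nuclear receptors, or to the longer repeat described below.
Acot2: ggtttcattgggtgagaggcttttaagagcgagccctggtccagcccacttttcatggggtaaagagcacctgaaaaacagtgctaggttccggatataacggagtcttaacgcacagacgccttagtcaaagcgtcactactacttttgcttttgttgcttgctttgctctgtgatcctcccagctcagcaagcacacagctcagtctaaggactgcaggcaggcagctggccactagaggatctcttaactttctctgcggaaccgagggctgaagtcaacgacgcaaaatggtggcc
Acot1: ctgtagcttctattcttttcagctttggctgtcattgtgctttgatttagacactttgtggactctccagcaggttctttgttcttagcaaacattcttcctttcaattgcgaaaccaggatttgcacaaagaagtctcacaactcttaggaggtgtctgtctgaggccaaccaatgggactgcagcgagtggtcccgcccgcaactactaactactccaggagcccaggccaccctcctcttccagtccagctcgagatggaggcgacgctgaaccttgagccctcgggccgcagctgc
Acot4: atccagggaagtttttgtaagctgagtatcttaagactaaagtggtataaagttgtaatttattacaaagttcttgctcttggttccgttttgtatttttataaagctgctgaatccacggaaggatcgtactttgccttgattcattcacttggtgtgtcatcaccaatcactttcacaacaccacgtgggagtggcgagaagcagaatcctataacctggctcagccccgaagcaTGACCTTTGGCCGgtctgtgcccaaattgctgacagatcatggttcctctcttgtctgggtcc
Acot3: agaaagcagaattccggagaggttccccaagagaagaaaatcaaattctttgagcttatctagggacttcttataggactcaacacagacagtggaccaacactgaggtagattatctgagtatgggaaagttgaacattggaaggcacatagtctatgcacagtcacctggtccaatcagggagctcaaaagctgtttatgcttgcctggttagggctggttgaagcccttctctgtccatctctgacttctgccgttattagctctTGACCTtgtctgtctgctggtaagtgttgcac

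Motifs were searched on both strands in the windows of the 8 members that RefSeq's promoter table lists, and Acot13 has no window here. AGGTCA, found in 16.3% of 32851 mouse windows of this length, was present in the windows of Acot3, Acot4, Acot5 and Acot12. In the printed strand it reads as TGACCT and begins 13 bases before the start in Acot4 and at base 19 of the transcript in Acot3. In Acot4 the same letters lie within a direct repeat, NGGNCA followed after 1 free base by AGGTCA, which 0.204% of windows hold and which was searched only after the sequence had been seen. The repeats planned beforehand were AGGTCA or AGGNCA given 2 times in the same direction with 1 free base between (0.0396% and 0.381% of windows). These forms of the PPAR and RXR element had no match in the 8 windows. The same was true of ATCGAT (0.925%) and ATCAAT (7.54%), the Cux and Onecut motifs, and of the STAT5 motif TTCNNNGAA (8.3%). The windows of Acot1, Acot2, Acot7 and Acot8 thus held none of the letters searched, which says nothing of binding elsewhere.

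Spot brightness, as each array's median over all spots, was 374.5 to 381 in the green channel and 435 to 459 in the red, over backgrounds of 306 to 342. Between 71.1% and 74.5% of readings per channel were well above background. The day 8 replicate 2 array had the widest spread between repeated spots, a coefficient of variation of 21.1% in green and 21.4% in red, outside the scanner's accepted range. On the other arrays that spread was 11.5% to 13.7%. Cux2 itself was lower on every array (log2 ratio -1.91 and -1.70 on the day 5 arrays, -1.07 and -1.20 on the day 8 arrays), and was left at 28.6% and 45.6% of control (limma adjusted p = 0.00298 and 0.00701). All 10 hepatocyte markers tested were well above background in 8 of 8 readings.

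Acot1 was the member with the highest ratio, about 4-fold to 5-fold above control on all 4 arrays. Its log2 level per channel, the normalised log2 brightness of the spot (which can carry dye bias), was 14.22 and 13.97 in the treated pools of day 5 and 14.18 and 13.87 in those of day 8. In the control pools on the same arrays it was 12.15 and 11.54, and 12.15 and 11.62. Treated and control levels did not overlap, averaging 14.06 ± 0.17 in the treated pools and 11.87 ± 0.33 in the control pools (SD, n = 4 arrays each). The log2 ratios were 2.08 and 2.43 at day 5 (mean 2.25, SE 0.12, 4.76-fold) and 2.02 and 2.25 at day 8 (mean 2.14, SE 0.12, 4.40-fold). Over both days the ratio averaged 2.19 (SE 0.08, 4.58-fold), rank 8 from the top among 25094 genes. In whole liver, a change in RNA per cell and a change in the number of cells of a type cannot be told apart. The Acot1 and Acot2 messages are near-identical, and the probe letters are not used here, so how much Acot2 message the Acot1 probe reads was not tested.

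**Figure D1:**
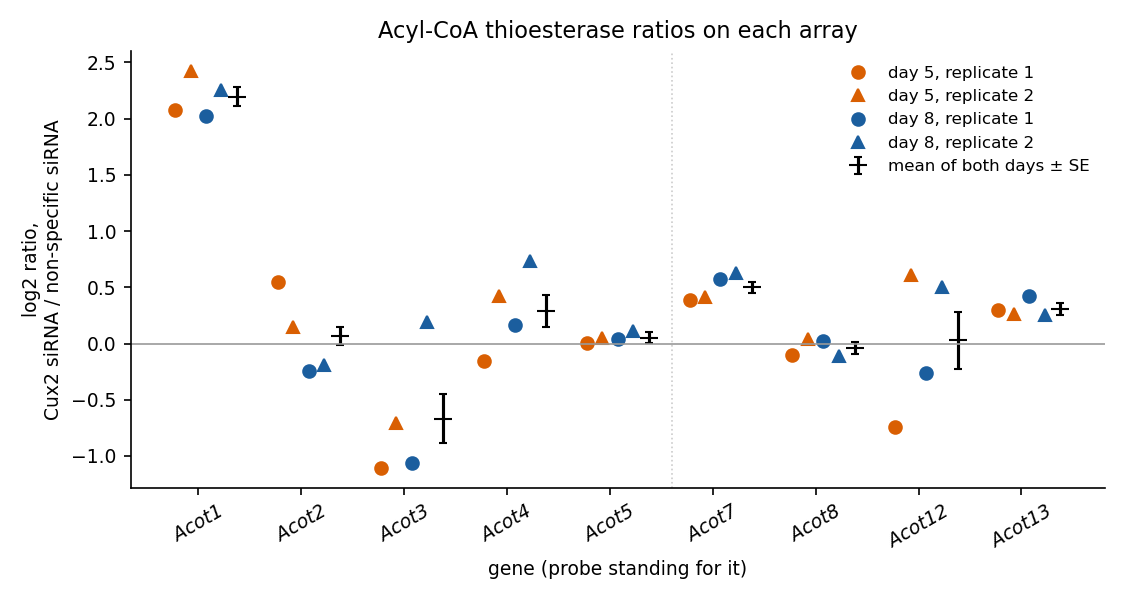
Log2 ratio of Cux2 siRNA over non-specific siRNA for the 9 Acot genes, 1 point per array (circles replicate 1, triangles replicate 2), with the mean of both days ± SE in black. The dotted line divides type I genes on the left from type II on the right. Acot1 lies between 2.02 and 2.43 on every array, Acot7 between 0.39 and 0.63, and Acot12 has circles below 0 and triangles above it.

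Acot2, the mitochondrial enzyme and the closest copy of Acot1, was dim. Its brightness above local background was 73 and 22.5 in the treated pools of day 5, against 24 and 22.5 in their controls. At day 8 it was 12 and 6 in the treated pools, against 20 and 19 in their controls. The treated pools of day 8 were not well above background on either array, so the size of the day 8 change is uncertain. As measured, Acot2 was 1.16-fold lower there than in the control pools (mean log2 level 6.07 treated, 6.28 control). The log2 ratios were 0.55 and 0.14 at day 5 and -0.24 and -0.19 at day 8. They depended on the background step, with a day 5 mean of 1.12 and a day 8 mean of -1.29 from the scanner's processed signals. Without background subtraction the day 5 mean was 0.10 and the day 8 mean -0.04. Of 5 markers of brown fat and heart, tissues rich in Acot2, 0 passed as higher over both days and 1 fell. These markers were dim too, with summed processed signals of 112.5 to 220.6 in treated and 129.2 to 256.9 in control pools. The log2 ratios of the sums were 0.23 and -0.37 at day 5 and -0.20 and -0.33 at day 8. The part of those tissues in the Acot2 values was not tested.

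Acot3, one of the peroxisomal type I enzymes, was the member with the lowest ratio, and that ratio varied between arrays. Its log2 level was 10.90 and 10.54 in the treated pools of day 5, against 12.01 and 11.25 in their controls. At day 8 it was 10.97 and 10.29 in the treated pools, against 12.03 and 10.10 in their controls. The treated channel spanned 0.67 and the control channel 1.93, so the groups overlapped through the control of the day 8 replicate 2 array. The log2 ratios were -1.10, -0.71, -1.06 and 0.19, in the order day 5 replicate 1 and 2, then day 8 replicate 1 and 2. Day 5 averaged -0.91 (SE 0.31), day 8 averaged -0.44 (SE 0.31) and both days -0.67 (SE 0.22, 62.8% of control). Without the day 8 replicate 2 array, the one with the widest spot spread, the mean of both days was -0.98. Without the day 8 replicate 1 array it was -0.36, so the size of the Acot3 value depended on which day 8 array was kept. Why these arrays differed was not tested.

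Acot4, a peroxisomal enzyme that acts on dicarboxylyl-CoAs such as succinyl-CoA, was read by 2 probes, which gave similar ratios. The probe standing for the gene had log2 levels of 13.18 and 13.19 in the treated pools of day 5, against 13.34 and 12.77 in their controls, and of 13.35 and 13.52 in the treated pools of day 8, against 13.18 and 12.79 in their controls. The groups overlapped at day 5 and not at day 8. Its ratios were -0.16 and 0.42 at day 5 (mean 0.13, SE 0.20) and 0.17 and 0.73 at day 8 (mean 0.45, SE 0.20). The second probe gave -0.20 and 0.20 at day 5 and 0.17 and 0.53 at day 8. On both days and with both probes the replicate 2 array had the higher ratio.

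Acot5, the remaining peroxisomal type I enzyme, was near background, with 3 of 8 readings well above it (2 of 4 treated, 1 of 4 control). Its ratios of 0.00, 0.05, 0.04 and 0.11 therefore say little about its level. They depended on the background step. Their mean over both days was 0.05, but 0.74 from the scanner's processed signals and 0.01 without background subtraction. At day 5 neither control reading and 1 of 2 treated readings was above background, so no fold is given. Acot5 passed the filter on dim probes, as did the 8 other members, so all 9 were tested.

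**Figure D2:**
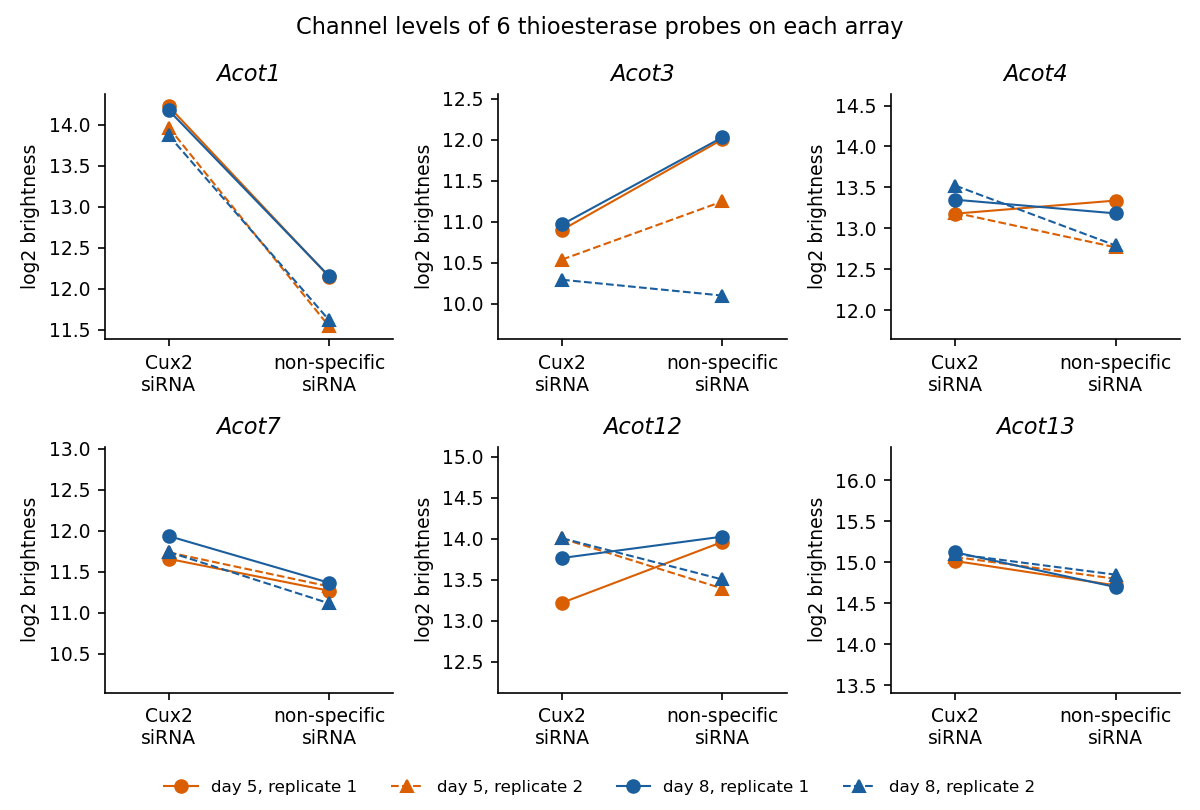
Normalised log2 brightness in the Cux2 siRNA channel (left in each panel) and the non-specific siRNA channel (right) for 6 members, with a line for each array (solid replicate 1, dashed replicate 2) and every vertical axis spanning 3 log2 units. Acot1 is higher on the Cux2 siRNA side of all 4 lines, Acot3 is lower there on all but the day 8 replicate 2 line, and the Acot12 lines cross by replicate.

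Among the type II genes, Acot7, a cytosolic enzyme that prefers long-chain and arachidonoyl-CoA and is best known from brain, was higher in the treated channel of all 4 arrays. Its log2 level was 11.66 and 11.74 in the treated pools of day 5, against 11.27 and 11.32 in their controls. At day 8 it was 11.94 and 11.74 in the treated pools, against 11.37 and 11.12 in their controls. The 4 treated readings all lay above the 4 control readings. The ratios were 0.39 and 0.42 at day 5 (mean 0.40, SE 0.07) and 0.57 and 0.63 at day 8 (mean 0.60, SE 0.07), and 0.50 over both days (SE 0.05, 1.41-fold).

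Acot13 (also called Them2), a mitochondria-associated enzyme that partners the phosphatidylcholine transfer protein, was higher in every treated reading than in every control reading. Its log2 level was 15.02 and 15.07 in the treated pools of day 5, against 14.72 and 14.80 in their controls, and 15.12 and 15.10 in the treated pools of day 8, against 14.70 and 14.85 in their controls. The ratios were 0.30, 0.27, 0.42 and 0.25, with a mean of 0.31 (SE 0.05, 1.24-fold). Acot8, a peroxisomal thioesterase of broad substrate range, had ratios near 0, at -0.10, 0.04, 0.02 and -0.11 (mean -0.04, SE 0.06).

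Acot12, the liver-rich cytosolic enzyme that hydrolyses acetyl-CoA, went in opposite directions on the arrays of the same day. Its log2 level was 13.22 and 14.00 in the treated pools of day 5, against 13.96 and 13.39 in their controls. At day 8 it was 13.77 and 14.01 in the treated pools, against 14.03 and 13.50 in their controls. The ratios were -0.74 and 0.61 at day 5 and -0.26 and 0.50 at day 8, so the mean of 0.03 (SE 0.26) averages arrays that disagree. The replicate number also sets the dyes and may set the control pool. The ratio of replicate 1 minus that of replicate 2, worked out after these values were seen and so given without a test, averaged -1.06 for Acot12 (SE 0.16) and -0.57 for Acot4 (SE 0.08). For Acot3 it was -0.83 (SE 0.22) and for Acot1 -0.29 (SE 0.09), and in these 4 genes replicate 1 was the lower on both days. Dye, control pool and treated pool cannot be told apart here.

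Of the 9 members, Acot1 and Acot7 passed an adjusted p of 0.05 at day 5, where 16.8% of all genes tested passed. The same pair passed at day 8, where 14.3% of all genes did. Over both days Acot1, Acot7 and Acot13 passed, where 31.1% of all genes did. With the replicate number as a block, 5 members passed at day 5 (Acot2, Acot3 and Acot13 as well). The block gave 4 at day 8 (Acot4 and Acot13 as well) and 5 over both days (Acot3 and Acot4 as well). More of all genes tested passed with the block too, by the counts given at the end, so the percentages above do not apply to it. The Acot7 call at day 5 ended with processed signals, with median centring and when either day 5 array was left out, and at day 8 with median centring and when either day 8 array was left out. The Acot13 call ended with median centring and without day 5 replicate 1, day 5 replicate 2 or day 8 replicate 1, and Acot7 over both days ended with median centring. Other settings added calls. Acot5 passed over both days with processed signals and with the authors' log10 ratios, and Acot3 at day 5 with the day 5 arrays alone. Acot13 passed at both day 5 and day 8 without background subtraction. At day 8 Acot13 also passed with other probe filters and summaries. Since the members were chosen with these ratios known, nothing is read from these counts and calls. The median log2 ratio of the 9 members was 0.13 at day 5, 0.12 at day 8 and 0.07 over both days, beside medians over all genes of 0.0011, 0.0043 and 0.0032.

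The change between days could be tested, since it did not enter the choice of members. No member passed for the day 8 ratio minus the day 5 ratio (limma adjusted p = 1.00 for each), and of all 25094 genes 0 passed (0%), while 621 had an unadjusted p under 0.05. For Acot1 the difference was -0.11 (95% interval -0.54 to 0.31), so day 8 may have been lower or higher than day 5 by amounts up to these bounds. Acot7 had a difference of 0.20 (-0.05 to 0.44) and Acot13 one of 0.06 (-0.22 to 0.34). The intervals of Acot3 (-0.66 to 1.61) and Acot12 (-1.14 to 1.52) were too wide to tell a gain from a loss. Acot2 had a difference of -0.56 (-0.98 to -0.14), the one member whose interval left out 0, with the dim readings given above.

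**Figure D3:**
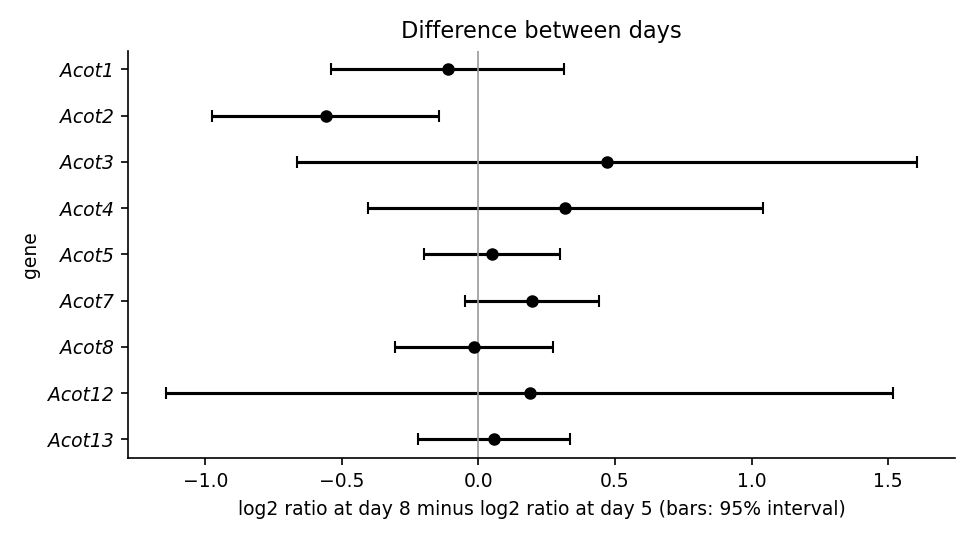
Log2 ratio at day 8 minus log2 ratio at day 5 for each member, with the 95% interval as bars. Every interval but that of Acot2 (-0.98 to -0.14) includes 0, and those of Acot3 and Acot12 are the widest.

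In chromosome order the cluster runs Acot2, Acot1, Acot4, Acot3, Acot5 and Acot6, between Riox1 on one side and Dnal1 on the other. The mean ratio over both days was 0.07 for Acot2, 2.19 for Acot1, 0.29 for Acot4, -0.67 for Acot3 and 0.05 for Acot5, and Acot6 has no value here. Beyond the cluster, Riox1, a histone and ribosome hydroxylase, rose (0.34, SE 0.08, limma adjusted p = 0.0401). That call ended without day 5 replicate 1 (adjusted p = 0.129), day 8 replicate 1 (0.135) or day 8 replicate 2 (0.0694). The Riox1 call also ended with median centring (limma adjusted p = 0.629) and without background subtraction (0.094). The values of Numb (0.03, adjusted p = 0.703), Papln (-0.03, adjusted p = 0.776) and Dnal1 (0.03, adjusted p = 0.692) did not pass. These neighbours were chosen by position after the member values were seen.

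**Figure D4:**
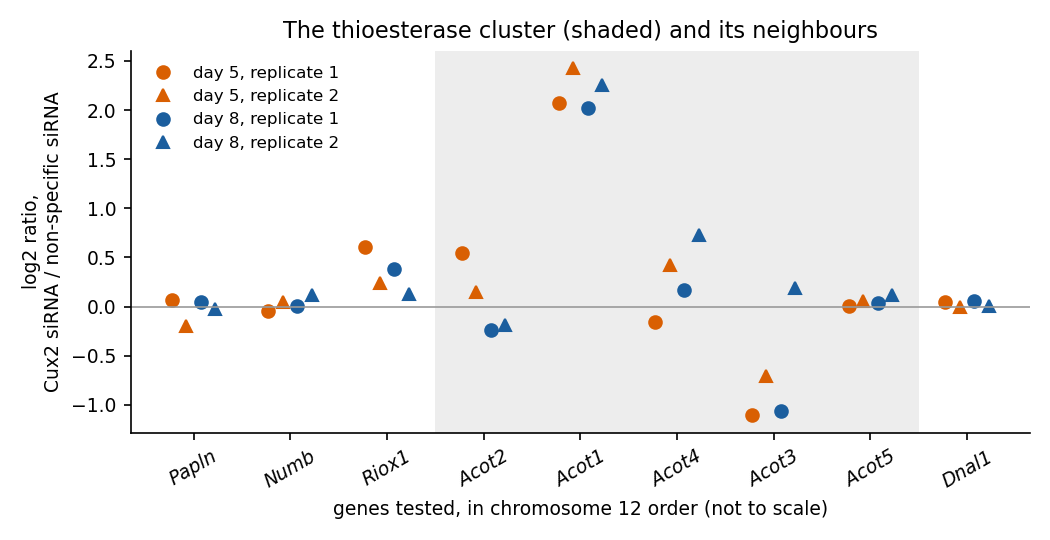
Log2 ratio of Cux2 siRNA over non-specific siRNA on each array for the thioesterase cluster (shaded) and its nearest tested neighbours, in chromosome 12 order and not to scale. Acot1 stands at 2.02 to 2.43 between Acot2 and Acot4, while Papln, Numb and Dnal1 lie near 0.

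By Euclidean distance over the 4 array ratios, among 13827 genes with a symbol, Acot1 was nearest to Slc17a8, a vesicular glutamate transporter (distance 0.20, mean ratio 2.16). Ces1e, a liver carboxylesterase that also cleaves ester bonds, came next (0.45, mean ratio 2.06). Gdpd3 (0.76), Npb (0.78), Tmc7 (0.82) and Colec10 (0.87) followed. Acot3 was nearest to Ckm, muscle creatine kinase (distance 0.32), followed by Dmkn (0.45), Myom2 (0.47), Abcd2 (0.49), Myoz1 (0.49) and Abcc2 (0.51). Ckm had ratios of -1.17, -0.48, -1.15 and 0.00. On the last of these arrays, day 8 replicate 2, Dmkn had 0.24, Myom2 0.47, Abcd2 -0.06, Myoz1 -0.11 and Abcc2 -0.17. These genes were picked for nearness over these same arrays, so their likeness to Acot3 on that array comes with the choice. No other member was among the nearest 6 of either gene.

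The other thioesterases of mouse, which were not among the genes chosen, gave a fall in 3 of 11 tested and a rise in 0. Acot9, a mitochondrial type II enzyme, had log2 ratios of -0.49, -0.59, -0.82 and -0.59 and fell by 0.62 (SE 0.06, limma adjusted p = 0.00387), to 65.0% of control. Acot10, an intronless near copy of Acot9, had -0.52, -0.54, -0.40 and -0.46 and fell by 0.48 (SE 0.05, adjusted p = 0.00376). The pair may share signal on the array. Ppt1, the lysosomal palmitoyl-protein thioesterase, fell by 0.47 (SE 0.07, adjusted p = 0.00948). Centring each array on its median in place of loess ended all 3 calls, with adjusted p of 0.155 for Acot9, 0.258 for Acot10 and 0.232 for Ppt1.

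The 8 others did not pass. Hibch, which releases CoA in valine breakdown, was closest (-0.22, adjusted p = 0.0518). It passed with 4 other settings, among them the replicate block (adjusted p = 0.013) and a filter on all 8 readings (0.0488). Lypla1, an acyl-protein thioesterase, had 0.19 (adjusted p = 0.0909, and 0.0236 with the block). Baat, the bile acid conjugating enzyme, had 0.12 (adjusted p = 0.115) and passed without background subtraction (0.0179) and with the mean of its probes (0.0362). Ppt2, a lysosomal thioesterase, had -0.14 (adjusted p = 0.122, and 0.0499 with the block). Them4 and Them5, both mitochondrial, had 0.09 and 0.10, and Lypla2, a relative of Lypla1, -0.01. The probe standing for Acot11, of brown fat, had ratios of -0.27 and -0.34 on the replicate 1 arrays. It had 0.44 and 0.39 on the replicate 2 arrays, the same split as Acot12. A second Acot11 probe, with 3 of its 8 readings well above background, split the other way. It had 0.24 and 0.34 on the replicate 1 arrays and -0.41 and -0.03 on the replicate 2 arrays. The median of the 11 was -0.01, beside 0.0032 over all genes.

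Taking in the other thioesterases above as 1 list, 121 genes of 8 lists on acyl-CoA metabolism were tested over both days. Of these 22 rose and 21 fell, 35.5% of the genes together, beside 31.1% of all genes tested (14.8% higher and 16.3% lower). With the scanner's processed signals the split was 18 higher and 11 lower, and with arrays centred on the median 4 list genes passed, Acsm2, Acsl3, Cyp4a10 and Cyp4a31, where 43 had passed with loess. The lists, like the members, were written with earlier results of these arrays known.

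The acyl-CoA synthetases, which make the substrates that the Acot enzymes split, gave 2 that rose and 6 that fell of 17 tested (median -0.07). Acsm2, a medium-chain synthetase, had ratios of -1.86, -1.84, -1.69 and -1.69 and fell by 1.77 (SE 0.05, limma adjusted p = 0.000393), to 29.4% of control. Its value was -0.77 without background subtraction and -2.62 with processed signals, and it passed in both. Acsl3, a long-chain enzyme of lipid droplets, rose by 0.94 (SE 0.16, adjusted p = 0.0152), a call that ended without background subtraction (adjusted p = 0.0525). Acsm3, another medium-chain enzyme, fell by 0.55 (SE 0.09, adjusted p = 0.0116, and 0.0513 without background subtraction).

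Of 18 genes of mitochondrial beta-oxidation, 3 rose and 1 fell (median 0.04). The 3 that rose were Acaa2, the last thiolase of the cycle (0.47, adjusted p = 0.045), Slc25a20, the carnitine-acylcarnitine carrier (0.30, adjusted p = 0.0269), and Cpt2, the inner carnitine palmitoyltransferase (0.29, adjusted p = 0.0214). Each call ended when single arrays were left out, that of Cpt2 also with processed signals (adjusted p = 0.096) and that of Acaa2 without background subtraction (0.0634) or without the filter on dim probes (0.0519). Without the day 5 replicate 2 array the adjusted p was 0.0534 for Acaa2, 0.111 for Slc25a20 and 0.105 for Cpt2. Leaving out day 5 replicate 1 gave 0.141 for Acaa2 and 0.0639 for Cpt2, day 8 replicate 1 gave 0.125 for Acaa2 and 0.0681 for Slc25a20, and day 8 replicate 2 gave 0.111 for Slc25a20 and 0.0953 for Cpt2. Cpt1a, the entry step and named after its value was seen, had -0.23 (adjusted p = 0.155).

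Peroxisomal beta-oxidation, where Acot3, Acot4, Acot5 and Acot8 act, had 4 that rose and 3 that fell of 21 tested (median 0.12). Crot, which turns medium-chain acyl-CoA into carnitine esters for export and so uses the same substrates as peroxisomal thioesterases, fell by 0.75 (SE 0.08, limma adjusted p = 0.004). Of the fatty acid importers, Abcd3 rose by 0.55 (adjusted p = 0.0172) and Abcd2 fell by 0.80 (adjusted p = 0.0155). The Abcd3 call ended without day 8 replicate 1 (adjusted p = 0.0572), and that of Abcd2 without day 5 replicate 1 (0.0567) or replicate 2 (0.0506). The mean of all kept Abcd2 probes was -0.39 (adjusted p = 0.0945), and its call also ended with processed signals (0.0611) and without background subtraction (0.0525). Ehhadh, the bifunctional enzyme and named after its value was seen, had 0.21 (adjusted p = 0.068).

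Coenzyme A, the other product of the reaction, is made and broken down by 13 genes tested, of which 4 rose and 1 fell (median -0.05). Vnn3, a pantetheinase, fell by 1.05 (SE 0.13, adjusted p = 0.00685). Nudt8, a mitochondrial, and Nudt19, a peroxisomal CoA diphosphatase, rose by 0.44 (adjusted p = 0.0103) and 0.48 (adjusted p = 0.0172). The Nudt19 call ended without day 5 replicate 1 (adjusted p = 0.0683) or replicate 2 (0.0549). Of 9 genes for fatty acid and acyl-CoA binding 0 rose and 1 fell (median 0.07), Fabp4, a carrier of fat cells and macrophages, by 0.54 (adjusted p = 0.0093).

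Acot genes are known targets of PPAR alpha, and 19 other targets of that receptor were tested. Of these 7 rose and 2 fell (median 0.11). G0s2, an inhibitor of the triglyceride lipase, rose by 1.32 (SE 0.09, limma adjusted p = 0.00186). Cyp4a10, a fatty acid omega-hydroxylase, rose by 1.19 (SE 0.21, adjusted p = 0.0167) and its relative Cyp4a31 by 1.33 (SE 0.30, adjusted p = 0.0308). The Cyp4a probes may read one another's messages, and the Cyp4a31 call ended without day 5 replicate 2 (adjusted p = 0.0859) or day 8 replicate 2 (0.0844). Without background subtraction both calls ended (adjusted p = 0.0572 for Cyp4a10, 0.0871 for Cyp4a31), and that of Cyp4a31 ended with processed signals too (0.0651).

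The other targets that rose were Plin5, a coat protein of lipid droplets (1.00, limma adjusted p = 0.00107), Pdk4, which holds back pyruvate oxidation (0.89, adjusted p = 0.0125), Retsat, a retinol saturase (0.77, adjusted p = 0.00254), and Plin4 (0.66, adjusted p = 0.00432). The Plin4 value was 0.37 without background subtraction. Plin2, the droplet coat protein of many tissues, fell by 0.46 (adjusted p = 0.00633). Ucp2, a mitochondrial carrier, fell by 0.42 (adjusted p = 0.0163), a call that ended without day 5 replicate 2 (0.0745) or day 8 replicate 2 (0.0553). Without background subtraction the Ucp2 call ended too (limma adjusted p = 0.0532). The remaining 10 targets did not pass, Cyp4a14 and Fgf21 among them. Cyp4a14 had -0.92 and 0.36 at day 5 and -0.34 and 0.69 at day 8, with a mean of -0.05 (adjusted p = 0.906). Fgf21, a fasting hormone, had -0.94 (adjusted p = 0.0711). These 8 genes, from Plin5 on, were named after their values were seen. Ppara itself had 0.11 (SE 0.06, adjusted p = 0.205). Among 13 nuclear receptors and cofactors 2 rose and 4 fell (median -0.05). Rxrg, a partner receptor, fell by 0.66 (adjusted p = 0.00948), and Ppargc1a, a fasting coactivator, fell by 0.62 (adjusted p = 0.0167). Without day 5 replicate 2 the Ppargc1a call ended (adjusted p = 0.066), as it did with processed signals (0.0508) and without background subtraction (0.0555).

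**Figure D5:**
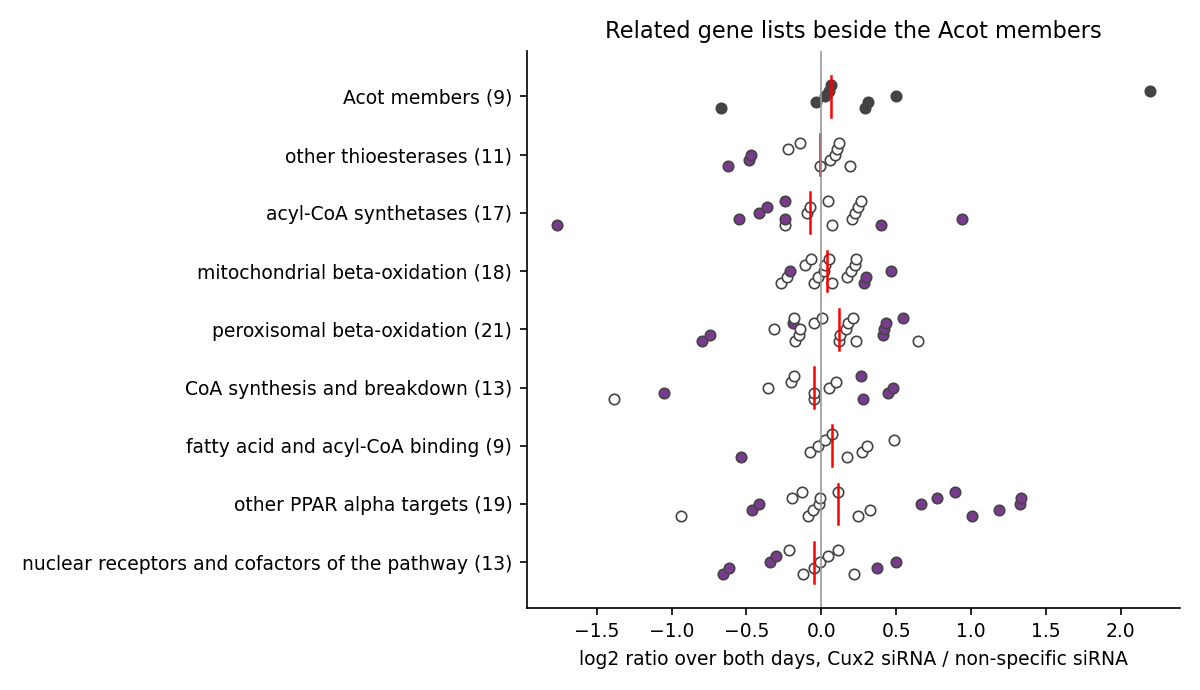
Log2 ratio over both days of every tested gene in the related lists, 1 point per gene with the list median as a red line; filled purple points passed a limma adjusted p of 0.05, and the Acot members, in grey, are shown without a test. Acot1, at 2.19, lies to the right of all list genes, and Acsm2, at -1.77, to the left.

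Markers of other cell types differed between the groups as well. Of 11 macrophage markers tested 8 fell (median -0.59), with a summed processed signal of 62140 to 94220 in treated pools and 103700 to 128000 in control pools. Of 6 neutrophil markers 4 fell, with sums of 2007 to 4349 in treated pools and 15730 to 22020 in control pools. The 9 exocrine pancreas markers had log2 ratios of their sums of -3.32 and -4.30 at day 5 and 0.68 and -3.89 at day 8. Their sums were 1997 to 30000 in treated pools and 18790 to 60780 in control pools, and 4 of the 9 fell. Hepatocyte markers, of which 1 rose and 2 fell of 10, had sums of 1729000 to 2110000 in treated pools and 1480000 to 2109000 in control pools. Of the other lists, 3 of 8 lymphocyte and 2 of 4 adipocyte markers fell, 3 of 9 stellate cell markers rose and 5 fell, and 2 of 8 endothelial markers rose and 3 fell. Among bile duct markers 1 of 6 rose, and among erythroid markers 1 of 4 rose. A marker had to be well above background in at least 2 of 8 readings to be tested, so its detection is not a result here. The part of other cells in the Acot ratios was not tested.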

How the data were processed

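Liver RNA pools were read on 4 arrays. The deposited intensity values are median spot and local background brightness, as scanned (software: Feature Extraction, version 10.7.1.1, per the file headers), while the deposited processed intensity values were already background-subtracted and dye-normalized. The authors' deposited value table holds log10 ratios, equal within 1e-05 to the scanner's for all 45018 features on every array, treated over control, with a column median of 0. The scanner's quality flags and feature annotation, deposited as other columns, served for filtering and naming. From the deposited intensities, log2 ratios were obtained in R 4.3.3 with limma 3.58.1: normexp background correction (offset 50), loess within arrays with the 1639 control spots at weight 0, outlier spots removed (181 to 298 per array, 0 saturated), repeated spots averaged. A channel level is the log2 brightness after loess and Aquantile normalization, so it can carry dye bias. The slope of spike-in ratios was 0.909 to 0.923, so ratios are slightly compressed.

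Probes were named through RefSeq accessions (GRCm38.p6) for 23374 of 41174 (56.8%); the file headers name mm8, so positions are given only for RefSeq's promoter windows. Probes well above background in at least 2 of 8 readings were kept (31762), and the brightest stood for a gene. One lmFit and eBayes fit over the 4 arrays (2 residual and 2.78 prior degrees of freedom) gave day 5, day 8, their mean and their difference, with Benjamini-Hochberg adjustment over 25094 genes at 0.05. Simulated ratios with known changes were used as a check of the fit. Having 4 arrays limits the precision.

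The members and lists were chosen with earlier results of these data known. Genes named are the members, Cux2, the other thioesterases, the 3 largest passing changes with 1 sign on all 4 arrays in each list, Ppara, and the 6 nearest to Acot1 and to Acot3. Genes outside this rule (cluster neighbours and some list genes) are said to be chosen after their values were seen. One gene that the rule names is not reported here. Alternatives covered background, normalization, probe filter and summary, a replicate block, single days and each array left out.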

Additional observations from a re-analysis of the deposited data

Results flagged for a closer look

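Acot2 had an effect of opposite sign on the different days. Its log2 ratios were 0.55 and 0.14 at day 5 and -0.24 and -0.19 at day 8, so every array of one day was above 0 and every array of the other below it. The difference, day 8 minus day 5, was -0.56 (SE 0.16, limma adjusted p = 1.00 over all genes), and its lowest value was -2.41, from processed signals, and its highest -0.14, with no background subtracted. The treated pools of day 8 were not well above background on either array, with brightness of 12 and 6 above local background. That side of the difference is therefore uncertain.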

How the results depend on the processing

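Of 550 values of the members under 17 other settings, 26 moved by at least the spread between arrays, and 0 called values changed sign. The other 524 count as unmoved, partly by construction. Leaving out 1 array cannot shift a value beyond that spread, and the replicate block does not change the ratios. Differences between days counted as unmoved whenever they stayed uncalled. Uncalled values did change sign, and Acot12 at day 5 ran from -0.74 to 0.61 when single arrays were left out. The 26 were values of Acot2, Acot5 and Acot7. Acot1 over both days ran from 2.11 to 2.28. Acot2 and Acot5 had no value when all 8 readings had to be above background.

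The count of genes passing was 4218 at day 5 (1853 higher), 3597 at day 8 (1575 higher) and 7799 over both days (3709 higher, 4090 lower). Centring on the median in place of loess left 5 at day 5 (1 higher, 4 lower), 3 at day 8 (0 higher, 3 lower), 269 over both days (87 higher, 182 lower) and 4 list genes, where 43 had passed. Under it Acot1 passed over both days only. Processed signals gave 2015 at day 5 and 1474 at day 8, the authors' log10 ratios 2014 and 1466, and no background subtraction 2109 at day 8. Leaving out single arrays gave 246 to 3563 at day 5 (924 without day 5 replicate 1, 246 without day 5 replicate 2), 137 to 2498 at day 8 (763 without day 8 replicate 1, 137 without day 8 replicate 2), 3903 to 5469 over both days (4743 without day 5 replicate 1, 3903 without day 5 replicate 2, 4283 without day 8 replicate 2) and 25 to 33 list genes (25 without day 5 replicate 2). Where a day kept 1 array, it was assumed to vary like the other day. The difference between days had 0 calls in every setting. The causes were not tested.

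Same-numbered arrays share the dye orientation, so the replicate block is also a dye block, and no label ties them by animal, litter or day. The deviations of same-numbered arrays correlated at 0.5, with 2 pairs. With the replicate block 8240 of 25094 genes passed at day 5, 7454 at day 8, 11255 over both days and 74 list genes. Without it 4218 passed at day 5, 3597 at day 8, 7799 over both days and 43 list genes. Dim spots limit Acot2 and Acot5.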
